A study of Homo sapiens with 8 samples.

Results

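The 37 genes described here encode proteins of homologous recombination and of the Fanconi anemia pathway, and they were taken by symbol from the 54261 genes of the count table. Total RNA of 8 cultures was sequenced after removal of ribosomal RNA, with 1 library per line and condition. NCM460 and HIEC6, lines labelled as normal human intestinal epithelium (n = 2 lines), and DLD1, HCT116 and HCT8, lines from colorectal cancer (CRC, n = 3 lines), were left untreated. The same 3 CRC lines were also sequenced after hypoxia treatment, for which the labels give neither an oxygen level nor a duration. All libraries came from passage 5 in the same medium, DMEM with fetal bovine serum, the labels name no introduced allele or other agent, and since each replicate of a group was another line, replicate error here means variation from line to line.

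Homologous recombination repairs a double-strand break by copying an intact sister DNA. The ends are cut back to single strands by MRE11, RAD50, NBN and CtIP (encoded by RBBP8), BRCA1, PALB2 and BRCA2 prepare them for strand exchange together with a family of paralogs (RAD51B, RAD51C, RAD51D, XRCC2 and XRCC3), and motors, helicases and nucleases complete and resolve the joint molecules. The Fanconi core complex attaches ubiquitin to the FANCD2 and FANCI pair at crosslinks between the strands, and the kinases ATM and ATR, acting through CHEK2 and CHEK1, halt the cell cycle while repair goes on. Many of these genes are read out mainly in S phase in cycling cells, and lower expression of several of them in hypoxic tumor cells is known from other work.

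Total counts lay between 45519306 and 57374239. All 37 genes had at least 10 counts in every library, from 135 counts for XRCC2 in the HCT116 hypoxia library to 10083 for FANCI in untreated HCT8, and the exact (Clopper-Pearson) 95% interval of a single value reached 1.96% to 17.3% of the value to either side, with a median of 4.67%, which covers counting error only. Levels are given as CPM, counts scaled to a common library total, and 1 count was worth 0.0174 to 0.022 CPM. The hypoxia libraries of the CRC lines share no run label with the untreated ones, so that run and treatment cannot be told apart. The 12 genes of a hypoxia response list were all above 0 in edgeR's fits of hypoxia against no treatment with and without the line as a block, 8 of them with an adjusted p under 0.05 with the block, with medians over the list of 1.93, 3.52 and 3.20 on the log2 scale in the pairs of DLD1, HCT116 and HCT8. CA9, the carbonic anhydrase induced by hypoxia, had 4.22, 18.8 and 3.91 CPM in the hypoxia libraries and no more than 0.115 CPM in the untreated CRC libraries. The library labelled NCM460 correlated at 0.994 with HCT116 and at 0.924 with HIEC6 in log2(CPM + 1) across genes, which are not independent replicates. Untreated and hypoxia libraries of the same line correlated at 0.994 in DLD1, 0.980 in HCT116 and 0.989 in HCT8. The library labelled NCM460 was thus as close to HCT116 as libraries of the same line were, and its identity was not tested. The HIEC6 library held 0.176 CPM of the epithelial adhesion gene EPCAM, against 301 CPM in NCM460. It held 1223 CPM of the mesenchymal filament gene VIM. Of 10 epithelial markers, 3 reached 1 CPM in it, among them the keratins KRT8 (4290 CPM) and KRT18 (3725 CPM). Over these 10 the summed level was 8019 CPM in HIEC6, 5388 CPM in NCM460 and 4551 to 11484 CPM in the untreated CRC lines. Of 10 fibroblast or mesenchymal markers, 6 reached 1 CPM in HIEC6, NCM460 and untreated HCT8, and 5 in untreated DLD1 and HCT116. Summed over 10 fibroblast or mesenchymal markers, the level was 107 CPM in NCM460, 1413 CPM in HIEC6, 12.7 to 44.03 CPM in the untreated CRC lines and 26.3 to 175 CPM in their hypoxia libraries, and its part in the results was not tested. The extraction label names brain tissue, and over 5 nervous tissue genes the summed level was 13.2 CPM in HIEC6 and 68.9 to 277 CPM in the other libraries. The glial gene GFAP did not exceed 0.0950 CPM, and the neuronal genes RBFOX3 and SNAP25 did not exceed 0.305 and 0.899 CPM, in any library. MBP, a myelin gene, had 10.8 to 118 CPM, and SYT1, a synaptic vesicle gene, had 68.8, 128 and 159 CPM in NCM460, HCT116 and HCT116 under hypoxia and no more than 1.43 CPM elsewhere. The part of these genes in the results was not tested.

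Hypoxia was compared with no treatment to ask how the repair genes differ between the conditions in the same CRC lines. Most of the 37 genes were lower under hypoxia, most strongly in HCT116. Their summed level was 2000 CPM in untreated DLD1 and 1746 CPM under hypoxia (87.3% of untreated), 1646 and 725 CPM in HCT116 (44.04%), and 2116 and 1569 CPM in HCT8 (74.1%). In the pair of libraries of a line, on the scale of log2(CPM + 0.05), 30 of 37 genes were below 0 in DLD1 (81.1%, against 48.9% of the 21045 genes tested), 37 of 37 in HCT116 (against 63.7%) and 34 of 37 in HCT8 (91.9%, against 48.2%). A pair has 1 library in each condition, so these are differences between libraries and carry no test. In bulk RNA, fewer cells of a type, such as cells in S phase, and less RNA per cell cannot be told apart.

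**Figure D1:**
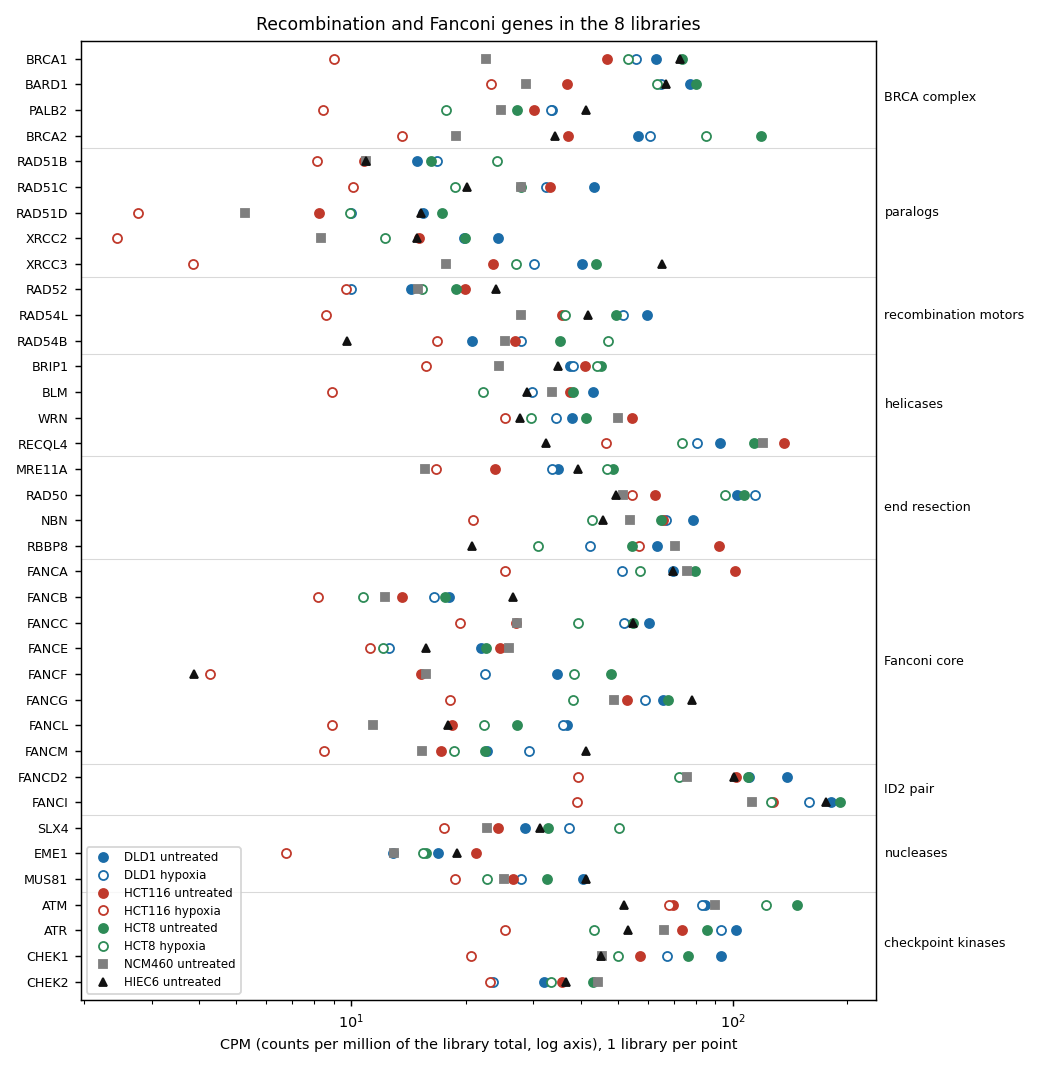
CPM of the 37 genes in each of the 8 libraries on a log axis, 1 library per point, with filled circles for untreated and open circles for hypoxia libraries of the CRC lines, grey squares for NCM460 and black triangles for HIEC6. The open red circles of HCT116 under hypoxia lie left of the filled red circles for all 37 genes, and XRCC2 reaches the lowest level, 2.44 CPM.

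Over the 37 genes, DLD1 had a median difference of -0.21, HCT116 of -1.38 and HCT8 of -0.48, where the medians of all genes tested were 0.00, -0.31 and 0.00. At least 0.5 lower were 7 genes in DLD1 (18.9%, against 13.6% of genes tested), 31 in HCT116 (83.8%, against 41.7%) and 17 in HCT8 (45.9%, against 21.2%). Among genes with a mean of 1 CPM or more the shares were 9.73%, 43.8% and 20.1%. The lower genes of DLD1 were RAD51D, RAD52, BLM, RBBP8, FANCE, FANCF and MUS81. Only RAD51B and SLX4, both in HCT8, were at least 0.5 higher in any pair, where 24.4% of genes tested were, and no gene was lower by 1 or more in DLD1 (against 4.68%) or HCT8 (against 8.38%), while 25 were in HCT116 (67.6%, against 23.2%). The HCT116 pair was the lowest of the 3 for 34 of 37 genes (against 56.5% of genes tested), and the DLD1 pair was the highest for 30 of 37 (against 40.6%).

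The HCT116 pair was lower over the whole table too. The 10 most abundant genes took 13.1% of the counts of HCT116 under hypoxia and 6.03% to 8.86% in the other libraries, and its TMM factor, edgeR's correction of library size for composition, was 0.795. TMM-scaled CPM moved the median of all genes tested in HCT116 from -0.31 to 0.00 and that of the 37 genes from -1.38 to -1.04, with 25 of 37 genes at least 0.5 lower (67.6%, against 29.5%) and 35 of 37 below 0. The exceptions in HCT116 on that scale were RAD50 (0.14) and ATM (0.31). TMM left the medians of DLD1 at -0.21 and of HCT8 at -0.49, with 7 genes (against 13.5% of genes tested) and 17 genes (against 21.7%) at least 0.5 lower, and the HCT116 pair was then the lowest for 28 of 37 genes, against 40.5% of genes tested.

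**Figure D2:**
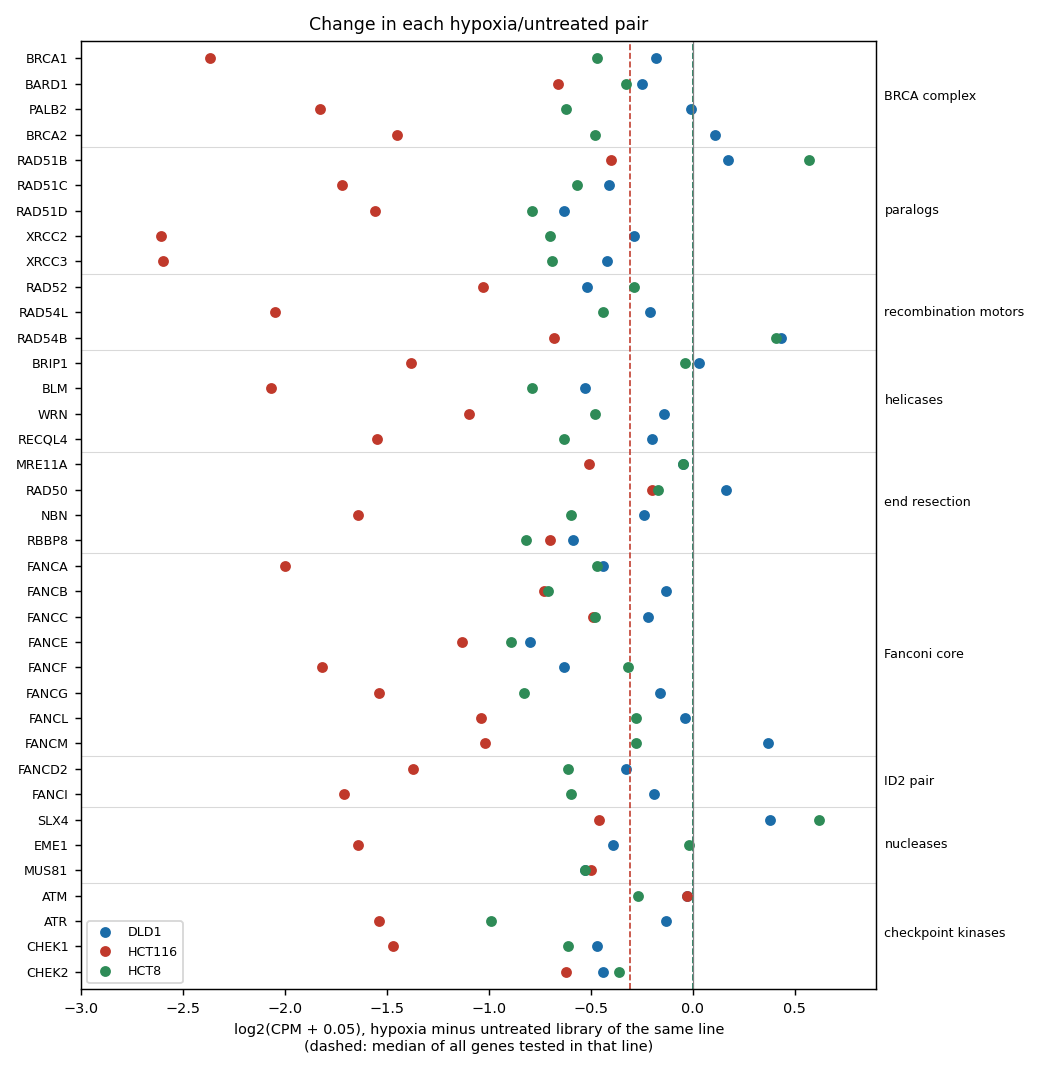
Difference in log2(CPM + 0.05) between the hypoxia and the untreated library of DLD1 (blue), HCT116 (red) and HCT8 (green) for each gene, grouped by role, with dashed lines at the median of all genes tested in each line (points of equal value overlie each other). HCT116 spreads from -2.61 to -0.03, while DLD1 stays between -0.80 and 0.43 and HCT8 between -0.99 and 0.62.

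All 3 pairs were below 0 for 30 of 37 genes (81.1%, against 26.4% of genes tested), and for 29 (78.4%, against 22.7%) after TMM scaling. At least 0.5 lower in all 3 pairs were RAD51D, BLM, RBBP8 and FANCE (10.8%, against 4.1%), and 0 genes were at least 0.5 higher in all 3 (against 4.42%). After TMM scaling RBBP8 had -0.36 in HCT116 and the other 3 remained (8.11%, against 3.49%). The 3 hypoxia libraries lay below the 3 untreated libraries, with no overlap, for BLM, WRN, RECQL4, FANCA, FANCE and EME1 (16.2%, against 6.44% of genes tested), and above them for 0 genes (against 3.06%). For EME1 the gap in HCT8 was 15.4 against 15.7 CPM, within counting error. After TMM scaling RAD52 and CHEK2 joined these (8 genes, 21.6%, against 5.37%). With DLD1 and HCT8 alone, 18 of 37 genes did not overlap in that direction (48.6%, against 15.4%).

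The test across lines, edgeR's quasi-likelihood test on the 3 hypoxia and 3 untreated libraries, treated the lines of a group as replicates. It gave a negative log2 fold change for 33 of 37 genes (against 45.7% of genes tested), with a median of -0.54 and a range from -0.90 (BLM) to 0.36 (SLX4). None of the 37 genes and 0 of 21045 genes tested (0%) had a Benjamini-Hochberg adjusted p under 0.05. At an unadjusted p under 0.05 there were 3 of the 37 (RECQL4, FANCA and FANCE) and 2.88% of genes tested. With the line as a block, which compares each line with itself, the median was -0.57 with 32 genes below 0, and 19 of 37 genes (51.4%) had an unadjusted p under 0.05, against 18.5% of genes tested. After adjustment 0 of 37 passed with edgeR, where 0.95% of genes tested did, and the smallest adjusted p of the 37 was 0.105, for FANCE. DESeq2 with the same block called 7.92% of genes tested (3.38% lower and 4.54% higher), among them 4 of the 37, RAD51D, BLM, FANCE and CHEK1, all lower. Of these calls, FANCE held without HCT116 and BLM without DLD1, while RAD51D and CHEK1 were not called in any fit that left out a line. Without HCT116 the members called by DESeq2 were RBBP8 and FANCE (2.35% of genes tested were called lower), without DLD1 they were XRCC3, BLM, FANCG and ATR (2.42%), and without HCT8 there were 0 (0.182%), with 9 at an unadjusted p under 0.05 (24.3%, against 8.46% of genes tested) and 8 with edgeR (21.6%, against 8.92%).

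BRCA1, BARD1, PALB2 and BRCA2 form an assembly that acts on resected DNA, and their median differences were -0.09 in DLD1, -1.64 in HCT116 and -0.47 in HCT8. BRCA1, the ubiquitin ligase that opens the pathway, had 63.0, 46.8 and 73.5 CPM in the untreated libraries, in the order DLD1, HCT116, HCT8 used from here on, and 55.7, 9.03 and 53.2 CPM in their hypoxia libraries. HCT116 under hypoxia alone stood apart, at 19.3% of its untreated level, whereas DLD1 kept 88.3% and HCT8 72.4%. The fitted log2 fold change was -0.60 (standard error 0.56, edgeR adjusted p = 1), and it was -0.85 (standard error 0.34, adjusted p = 0.238) with the block. PALB2, the bridge between BRCA1 and BRCA2, went from 33.6, 30.1 and 27.3 CPM to 33.5, 8.43 and 17.7 CPM, so that DLD1 showed nearly the same level in both conditions. BRCA2, which acts downstream of PALB2, was at 56.5, 37.1 and 118.5 CPM untreated and at 60.8, 13.6 and 85.3 CPM under hypoxia. BARD1, the partner of BRCA1, had the smallest HCT116 difference of these 4 genes. It held 84.1%, 63.1% and 79.4% of its untreated level. BRCA1 shares sequence with a nearby pseudogene, and its counts are uncertain to that extent.

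The paralog family, whose members work in complexes during strand exchange, had the lowest medians of the 9 roles, with -0.41 in DLD1, -1.72 in HCT116 and -0.69 in HCT8. RAD51D (chr17:33419240-33448541, minus strand, GRCh37) had 15.5, 8.25 and 17.3 CPM untreated and 9.97, 2.76 and 9.95 CPM under hypoxia. Each hypoxia library was below its own untreated library, at 64.5%, 33.5% and 57.6%, although the groups overlapped because untreated HCT116 was itself low. Its log2 fold change was -0.79 (standard error 0.53, adjusted p = 1) with edgeR and no block, -0.86 (standard error 0.25, adjusted p = 0.139) with the block, and -0.84 (standard error 0.26, adjusted p = 0.022) with DESeq2 and the block.

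XRCC2 and XRCC3 had, with BRCA1, the widest spread among lines. XRCC2 went from 24.3, 15.1 and 19.9 CPM to 19.8, 2.44 and 12.3 CPM, and XRCC3 from 40.3, 23.5 and 43.8 CPM to 30.1, 3.85 and 27.1 CPM. In both, HCT116 under hypoxia held 16.2% and 16.3% of the untreated level, where DLD1 held 81.6% and 74.7% and HCT8 61.6% and 61.8%. The block fit of edgeR gave -1.04 (standard error 0.38, adjusted p = 0.202) for XRCC2 and -1.08 (standard error 0.35, adjusted p = 0.166) for XRCC3. RAD51C, which sits in both paralog complexes, had 74.99%, 30.3% and 67.1% of the untreated level. RAD51B was the exception, with 14.9, 10.8 and 16.2 CPM untreated and 16.8, 8.14 and 24.1 CPM under hypoxia, higher in 2 of 3 lines.

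RAD52 anneals single strands, and RAD54L and RAD54B are motors that drive strand exchange. RAD54L went from 59.6, 35.6 and 49.6 CPM to 51.6, 8.59 and 36.4 CPM, and RAD52 from 14.3, 19.9 and 18.8 CPM to 9.97, 9.68 and 15.4 CPM. For RAD54L the HCT116 hypoxia library stood apart, at 24.1% of untreated, while RAD52 was closer among lines, at 69.6%, 48.7% and 81.7%. RAD54B, with 20.7, 26.8 and 35.4 CPM untreated and 27.8, 16.8 and 47.1 CPM under hypoxia, was higher in DLD1 and HCT8 and lower in HCT116, and it shares exons on the same strand with FSBP.

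The helicases BLM, WRN, RECQL4 and BRIP1 unwind joint molecules and unusual DNA structures. BLM (chr15:91260577-91359396, plus strand, GRCh37), the Bloom syndrome helicase, had 43.2, 37.5 and 38.3 CPM untreated and 29.8, 8.92 and 22.1 CPM under hypoxia. The groups did not overlap, since the untreated lines were nearly alike and every hypoxia library was below all of them. It had the most negative log2 fold change of the 37 without the block, -0.90 (standard error 0.39, edgeR adjusted p = 1), and -0.99 (standard error 0.26, adjusted p = 0.116) with it. DESeq2 with the block gave -0.97 (standard error 0.30, adjusted p = 0.0188).

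RECQL4 went from 92.7, 136 and 114 CPM to 80.7, 46.6 and 73.8 CPM, and WRN, the Werner syndrome helicase, from 38.0, 54.4 and 41.4 CPM to 34.5, 25.4 and 29.7 CPM. Neither overlapped, though the gap was small in DLD1, with 87.1% and 90.6% of the untreated level. BRIP1, the helicase partner of BRCA1, kept 102% and 97.6% in DLD1 and HCT8 and 38.4% in HCT116.

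End resection, with medians of -0.14, -0.60 and -0.38, split by gene. RBBP8 went from 63.4, 92.1 and 54.5 CPM to 42.2, 56.7 and 30.8 CPM. In CPM it was among the genes most alike between lines, at 66.5%, 61.6% and 56.6% of untreated. The groups overlapped because untreated HCT116 was high. After TMM scaling the differences of RBBP8 were -0.59, -0.36 and -0.84. NBN, the sensor subunit of the MRE11 complex, went from 78.5, 65.5 and 65.0 CPM to 66.7, 20.9 and 42.7 CPM. The other 2 subunits differed little, MRE11A from 34.9, 23.8 and 48.6 CPM to 33.6, 16.7 and 46.8 CPM and RAD50 from 103, 62.7 and 107 CPM to 114, 54.6 and 95.3 CPM. The edgeR log2 fold changes without the block were -0.60 for NBN, -0.51 for RBBP8, -0.06 for MRE11A and 0.07 for RAD50, with an adjusted p of 1 for each.

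The Fanconi core complex is a ubiquitin ligase with FANCL as its catalytic subunit, and the medians of its 8 genes were -0.19, -1.09 and -0.48. FANCE (chr6:35420115-35434881, plus strand, GRCh37), which contacts FANCD2, had 21.8, 24.6 and 22.5 CPM untreated and 12.5, 11.2 and 12.1 CPM under hypoxia. Each group was tight, the groups did not overlap, and FANCE held 57.4%, 45.5% and 53.9% of the untreated level in the 3 lines. The log2 fold change was -0.81 (standard error 0.30, edgeR unadjusted p = 0.0342, adjusted p = 1), -0.81 (standard error 0.20, adjusted p = 0.105) with the block, and -0.78 (standard error 0.21, adjusted p = 0.00492) with DESeq2 and the block.

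FANCA, the gene most often mutated in Fanconi anemia, went from 69.6, 102 and 79.6 CPM to 51.4, 25.4 and 57.3 CPM, again without overlap. FANCF, an adaptor of the complex, went from 34.6, 15.2 and 47.9 CPM to 22.4, 4.26 and 38.4 CPM, and FANCG, which binds FANCA, from 65.5, 52.8 and 67.6 CPM to 58.8, 18.1 and 38.1 CPM. In all of these HCT116 was lowest under hypoxia, at 24.97%, 28.0% and 34.4% of untreated. FANCB and FANCC had 91.4% and 86.02% of untreated in DLD1, 60.0% and 71.3% in HCT116 and 61.0% and 71.9% in HCT8, and FANCL had 97.1%, 48.5% and 82.1%. FANCM, the translocase that anchors the complex to DNA, was the exception in DLD1, with 22.7 CPM untreated and 29.3 CPM under hypoxia.

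FANCD2 and FANCI, the pair that the core complex modifies, were lower in all 3 lines. FANCD2 went from 139, 102 and 109.9 CPM to 111, 39.3 and 72.2 CPM, and FANCI from 181, 128 and 191 CPM to 159, 39.2 and 126 CPM. HCT116 held 38.6% and 30.6% of the untreated level, HCT8 65.7% and 65.9%, and DLD1 79.8% and 87.9%. The block fit of edgeR gave -0.63 (standard error 0.20, adjusted p = 0.152) for FANCD2 and -0.69 (standard error 0.24, adjusted p = 0.186) for FANCI, and FANCD2 has pseudogene copies that leave its counts uncertain.

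Among the nucleases that resolve joint molecules, EME1 went from 16.9, 21.2 and 15.7 CPM to 12.9, 6.75 and 15.4 CPM, and its partner MUS81 from 40.4, 26.5 and 32.7 CPM to 28.0, 18.7 and 22.6 CPM. MUS81 had the most even difference of the 37, at 69.2%, 70.7% and 69.3% of untreated, on the CPM scale. After TMM scaling its differences were -0.53, -0.16 and -0.54, where FANCE had -0.80, -0.80 and -0.90. The exons of MUS81 overlap those of CFL1 on the other strand. SLX4, the scaffold of these nucleases, had 28.5, 24.2 and 32.7 CPM untreated and 37.1, 17.5 and 50.3 CPM under hypoxia, higher in DLD1 and HCT8.

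ATR and CHEK1, which answer to single-stranded DNA, were lower in all 3 lines. CHEK1 (chr11:125495058-125546150, plus strand, GRCh37) went from 93.2, 57.2 and 76.5 CPM to 67.3, 20.6 and 50.2 CPM, or 72.2%, 36.1% and 65.7% of untreated, and the groups overlapped. Its log2 fold change was -0.64 (standard error 0.39, adjusted p = 1), -0.71 (standard error 0.20, edgeR adjusted p = 0.125) with the block, and -0.69 (standard error 0.22, adjusted p = 0.0253) with DESeq2 and the block. The exons of CHEK1 overlap those of STT3A on the same strand. ATR went from 102, 73.9 and 85.7 CPM to 93.1, 25.3 and 43.2 CPM. ATM and CHEK2 answer to double-strand breaks. ATM had 84.6, 69.6 and 147 CPM untreated and 82.9, 68.2 and 122 CPM under hypoxia, the smallest difference of the kinases, and CHEK2, which has many pseudogene copies, kept 73.6%, 64.8% and 77.98%.

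The 37 genes moved unequally in the 3 lines. Across them, the difference in DLD1 correlated with that in HCT8 at 0.63 (Pearson), with that in HCT116 at 0.35, and HCT116 with HCT8 at 0.47, as a description over genes that share libraries. In DLD1 the difference went with GC content (Spearman -0.44) and with exon length (0.44), whereas in HCT116 the values were -0.18 and 0.095 and in HCT8 -0.15 and 0.03. Counts of 19 of the 37 genes can include reads of a gene that overlaps their exons. For 16 of them a gene lies on the opposite strand, and the counting does not state whether strand was used. For RAD54B, RBBP8, FANCB and CHEK1 a gene overlaps on the same strand, where a strand setting would not separate the reads.

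**Figure D3:**
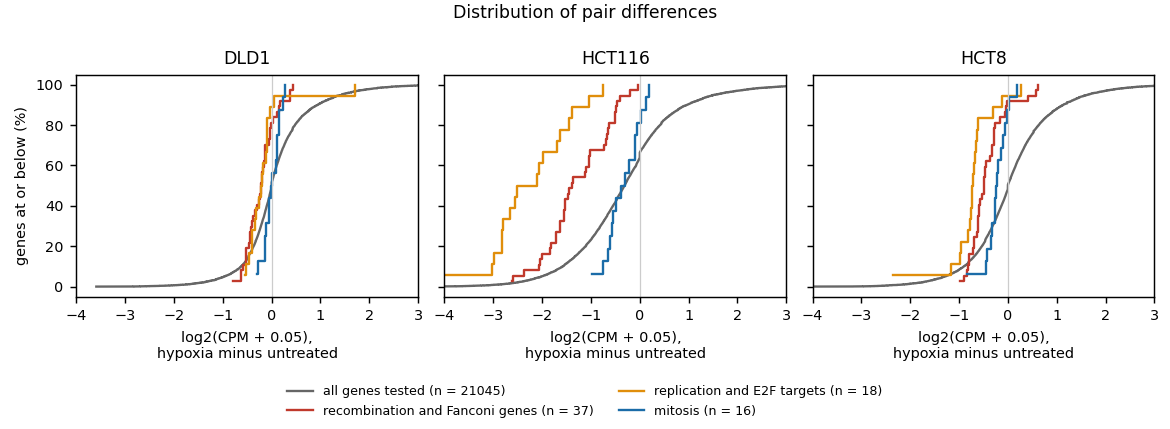
Cumulative share of genes at or below each difference in log2(CPM + 0.05) between hypoxia and untreated libraries of DLD1, HCT116 and HCT8, for all 21045 genes tested (grey), the 37 recombination and Fanconi genes (red), 18 replication and E2F target genes (orange) and 16 mitosis genes (blue). The red curve lies left of the grey one around 0 in every line, with medians of -0.21, -1.38 and -0.48 against 0.00, -0.31 and 0.00.

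The 37 genes were set beside 5 other lists of repair and cell cycle genes. None of the genes in these lists had an adjusted p under 0.05 in edgeR without or with the block. Of 49 other recombination and Fanconi genes, 47 had enough counts to be tested. Without the block 34 of these were below 0, with a median log2 fold change of -0.29. With the block 12 of the 47 had an unadjusted p under 0.05 in edgeR, against 18.5% of genes tested. Among those 12, DMC1 (1.16) and ERCC1 (0.39) were higher under hypoxia. EXO1, the nuclease of long resection, had pair differences of -0.51, -2.69 and -0.69. FAN1, a nuclease of crosslink repair, had -0.90, -1.28 and -0.99. End joining, the repair route that needs no sister DNA, was nearer to 0 without the block, with 7 of 10 genes below 0 and a median of -0.07. In that fit 18 genes of nucleotide and base excision repair had a median of -0.20 with 14 below 0. The pair medians were -0.0, -0.75 and -0.13 for end joining and -0.05, -0.77 and -0.34 for excision repair. In HCT116, 70% and 61.1% of these 2 lists were at least 0.5 lower, against 83.8% of the 37 genes and 41.7% of genes tested. Lower levels in HCT116 were thus not particular to the recombination genes. The excision gene UNG, a glycosylase that removes uracil, was at -0.46, -2.30 and -1.09 in the pairs.

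The 18 replication and E2F target genes, the list of S phase genes, all had a negative log2 fold change in edgeR's fits without and with the block. The median was -0.68 without the block and -0.97 with it. With the block, 14 of 18 had an unadjusted p under 0.05 in edgeR, against 18.5% of genes tested. The pair medians were -0.20, -2.30 and -0.72. In the pairs of DLD1, HCT116 and HCT8, 16, 18 and 17 of the 18 were below 0, against 48.9%, 63.7% and 48.2% of genes tested. All 3 pairs were below 0 for 15 of them (83.3%, against 26.4%). PCNA, the sliding clamp, had pair differences of -0.31, -2.83 and -0.98, and MCM6, a subunit of the replicative helicase, of -0.54, -1.98 and -0.81. CCNE2, a cyclin of S phase entry, had -0.46, -3.97 and -0.95. The mitosis list was nearer to 0: 10 of 16 genes were below 0, the median was -0.06, and its pair medians were -0.01, -0.34 and -0.24, against 0.00, -0.31 and 0.00 for all genes tested. In DLD1, HCT116 and HCT8, 9, 13 and 14 of the 16 were below 0, in HCT8 87.5% against 48.2% of genes tested. At least 0.5 lower in HCT116 were all 18 replication genes, 31 of the 37 repair genes and 6 of 16 mitosis genes, against 41.7% of genes tested. In HCT8 the numbers were 15, 17 and 1, against 21.2% of genes tested. In DLD1 they were 2 (11.1%), 7 (18.9%) and 0, against 13.6% of genes tested. The part of the S phase genes in the differences of the repair genes was not tested.

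**Figure D4:**
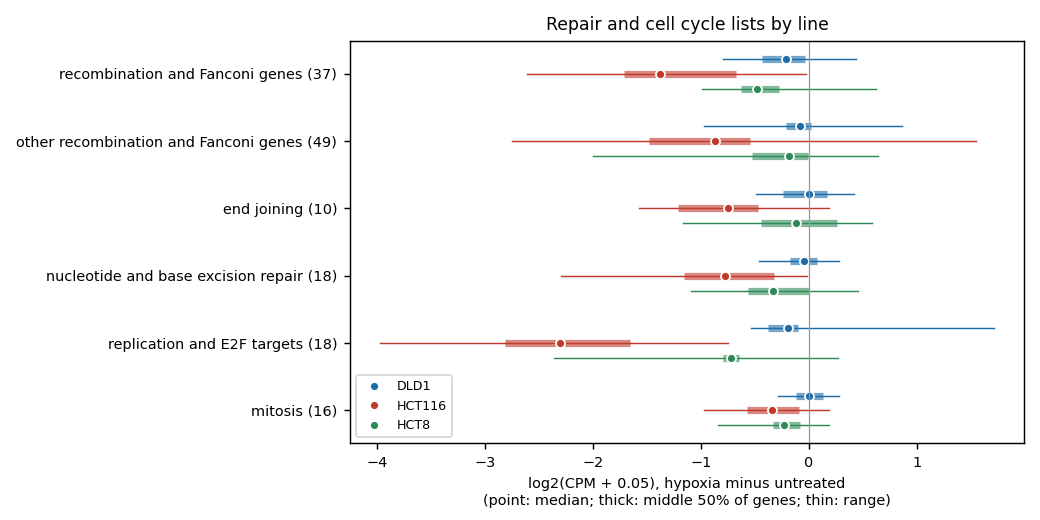
Median (point), middle 50% (thick bar) and range (thin line) of the difference in log2(CPM + 0.05) between hypoxia and untreated libraries for 6 gene lists, in DLD1 (blue), HCT116 (red) and HCT8 (green), with the number of genes in brackets. In HCT116 the lists order from replication and E2F targets (-2.30) over recombination and Fanconi genes (-1.38) to mitosis (-0.34).

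Promoters were searched for the letters of 3 elements, those of E2F targets, of mitotic genes and of hypoxia targets, none of which contains another. RefSeq start windows (GRCh38.p14, 250 bases before to 50 after the start) were matched by symbol for 32 of the 37 genes, and not for RAD54B, WRN, RECQL4, NBN and FANCI. The E2F letters TTTCCCGC, TTTGGCGC, TTTCGCGC and TTTGCCGC, on either strand, stood in the windows of 4 of the 32 (12.5%), against 3.99% of the 27305 genes with a window and 6.09% of the 12266 with a window in the hypoxia comparison, and in 12 of 14 replication genes (85.7%). They stood in 9 of 45 other recombination and Fanconi genes (20%), 1 of 8 end joining genes (12.5%) and 2 of 17 excision repair genes (11.8%). The replication list holds E2F targets by its definition, so its share is no separate result. The windows of XRCC2, FANCA, FANCC and FANCD2 are given here in the direction of the gene, with the E2F letters in capitals. These 4 are the members whose windows hold the letters.
XRCC2, chr7:152676102-152676131, minus strand: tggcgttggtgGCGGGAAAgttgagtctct
FANCA, chr16:89816801-89816830, minus strand: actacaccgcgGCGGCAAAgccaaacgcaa
FANCC, chr9:95317863-95317892, minus strand: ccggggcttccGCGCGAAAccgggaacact
FANCC, chr9:95317737-95317766, minus strand: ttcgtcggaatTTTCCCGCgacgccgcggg
FANCD2, chr3:10026424-10026453, plus strand: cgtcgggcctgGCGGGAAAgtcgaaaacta

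Of these genes, XRCC2, FANCA and FANCD2 held 16.2%, 24.97% and 38.6% of the untreated level in HCT116, and FANCC held 71.3%. BLM, BRCA1 and RAD51D, with -2.07, -2.37 and -1.56 in HCT116, held none of these letters, which says only that the letters are not in these windows. The CHR letters TTTGAA and TTCGAA, an element of mitotic promoters, stood in 3 of 32 genes (9.38%), namely BRIP1, FANCC and ATM, against 16% of genes of the hypoxia comparison and 10 of 14 mitosis genes (71.4%). The core of the hypoxia element, ACGTG, stood in 8 of 32 (25%), against 30.8% of genes of the comparison and 7 of 10 hypoxia response genes (70%). Those 8 were BRCA2, XRCC3, RAD50, FANCC, FANCE, FANCF, FANCM and FANCD2, whose HCT116 differences ran from -2.60 to -0.20.

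The contrast of CRC with normal lines is the one that the paper names for its sequencing, there for circular RNAs. Here it was made on gene counts of the untreated lines. Its normal group includes the library labelled NCM460, whose closeness to HCT116 limits what the contrast can show. No gene of the 37 and 0 of 19964 genes tested (0%) passed an adjusted p of 0.05 with edgeR, and 0 of the 37 and 2.71% of genes tested had an unadjusted p under 0.05. DESeq2 called 0.716% of genes tested and 0 of the 37. The median log2 fold change of the 37 was 0.16, with 24 genes above 0, from -0.68 (FANCM) to 1.57 (FANCF). The summed level was 1381 CPM in NCM460 and 1560 CPM in HIEC6, below the 1646 to 2116 CPM of the CRC lines. After TMM scaling, the normalization of edgeR, HIEC6 was at 1760 CPM, above the 1639 CPM of HCT116.

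All 3 CRC lines were above both normal lines, in CPM, for BRCA2, XRCC2, BRIP1, BLM, RAD50, NBN, FANCL, FANCD2, ATR and CHEK1 (10 of 37, 27%, against 13.2% of genes tested), and below both for 0 (against 4.99%). After TMM scaling, 4 of the 10 were above, RAD50, NBN, ATR and CHEK1 (10.8%, against 9.37% of genes tested), and CHEK2 was below (2.7%, against 7.66%), so that the first count rests on the scaling. BRCA2 had 18.8 and 34.2 CPM in NCM460 and HIEC6, below the 37.1 CPM of HCT116, the lowest CRC line. Its log2 fold change was 1.17 (standard error 0.60, edgeR adjusted p = 0.999). FANCF had 15.7 and 3.88 CPM in the normal lines and 34.6, 15.2 and 47.9 CPM in DLD1, HCT116 and HCT8, where NCM460 lay above HCT116, so the groups overlapped. FANCL had 11.4 and 17.9 CPM in the normal lines and 36.9, 18.4 and 27.2 CPM in the CRC lines, with a log2 fold change of 0.70 (standard error 0.49, edgeR adjusted p = 0.999).

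**Figure D5:**
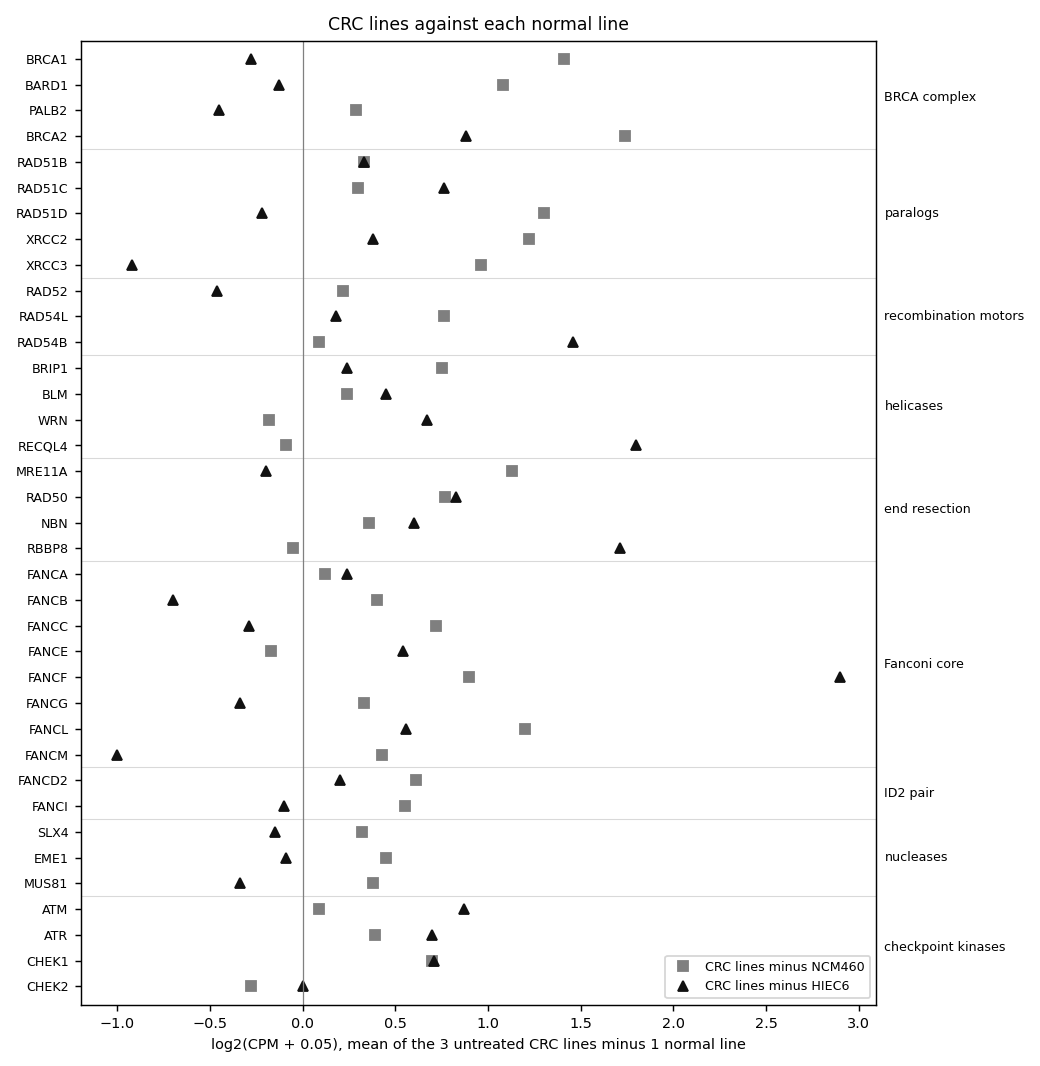
Mean log2(CPM + 0.05) of the 3 untreated CRC lines minus that of NCM460 (grey squares) or HIEC6 (black triangles) for each gene, with 1 library per line. Squares and triangles lie apart for many genes, and FANCF reaches 2.90 against HIEC6 and 0.90 against NCM460.

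The normal lines differed from each other for many of the 37 genes. HIEC6 was the highest of the 5 untreated libraries for PALB2, XRCC3, RAD52, FANCB, FANCG, FANCM and MUS81, and the lowest for 13 genes, among them RECQL4, RBBP8, RAD54B and FANCF, and after TMM scaling it was the highest for 15 and the lowest for 11. The CRC mean minus HIEC6 was 2.90 for FANCF, 1.80 for RECQL4, 1.71 for RBBP8 and 1.46 for RAD54B, and -0.92 for XRCC3, and FANCM had 41.4 CPM in HIEC6 and 17.2 to 22.7 CPM in the CRC lines. NCM460 was within 0.5 log2 of HCT116 for 29 of 37 genes (78.4%, against 66.2% of genes tested), and the other 8, BRCA1, BRCA2, RAD51D, XRCC2, BRIP1, MRE11A, FANCL and EME1, were all lower in NCM460. Without NCM460 the median log2 fold change was -0.02, with 18 genes above 0, and 5 genes had an unadjusted p under 0.05, RECQL4, RBBP8 and FANCF higher and XRCC3 and FANCM lower in the CRC lines, where 15.8% of genes tested did. Without HIEC6 it was 0.31, with 32 genes above 0 and BRCA1 at an unadjusted p under 0.05, where 1.32% of genes tested were.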

How the data were processed

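The authors sequenced ribosomal RNA-depleted total RNA on a HiSeq instrument and deposited raw counts per gene for 8 libraries, 1 per line and condition, with 54261 genes. The paper's methods name GRCh37.p13 as the genome, whereas the processing notes name GRCh38 and HISAT2 2.0.4, and the counter, the strand setting and the treatment of reads with several matches are not given in the sources used here, so reads of overlapping genes and near-copies may be split or shared. Total counts were 45519306 to 57374239. No column was left aside.

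Counts were divided by the column total to give CPM, and pair differences used log2(CPM + 0.05). The main test was the quasi-likelihood test of edgeR 4.0.16 in R 4.3.3 with TMM normalization, Benjamini-Hochberg adjustment and a threshold of 0.05. It was fitted to every gene that reached 10 counts in 2 or more of the libraries compared, with 3 hypoxia against 3 untreated CRC libraries, and 3 CRC against 2 normal libraries. A standard error is the log2 fold change over the root of F. Replicates are lines with 1 library each, so p-values measure the spread between lines, and with the block the spread of the response between lines. Untreated DLD1 and HCT8 correlated at 0.973 across genes, against 0.948 and 0.953 with untreated HCT116. Whether the 3 CRC lines are independent of each other was not tested. In the hypoxia comparison the replicate number is the line and pairs the samples. Deviations from the group means correlated at 0.865 to 0.877 for the same line and at -0.636 to -0.0852 for different lines. Deviations of the 3 lines of a group sum to 0 for each gene, so the negative values partly follow from the centering. In the normal comparison a shared number joins different lines.

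Alternatives were DESeq2 1.42.0, limma-trend (limma 3.58.1), other normalizations and filters, the block, offsets for GC content and length, and each library left out. DESeq2 with the block and each line left out, and TMM-scaled levels against the normal lines, were chosen after seeing the data. The fits were tested on simulated data with changes of known size. Without the block, at a coefficient of variation of 0.9, 0% of true log2 changes of 1 or 2 were recovered. The data had 0.876 for hypoxia and 0.868 for the normal comparison. Genes with at least 10 counts in every library, which include the 37, had 0.542 in the hypoxia comparison. At 0.5, 0% of changes of 1 and 11% of changes of 2 were recovered in that comparison. With the block, at 0.3 (data, 0.295), 13% of changes of 1 and 94% of changes of 2 were recovered. An absence of calls in the edgeR fits without the block therefore cannot show an absence of log2 changes of 1 or 2. With the block it cannot show an absence of changes of 1. The members, the gene lists and the alternatives were chosen with earlier results of these data known. Genes given in full are those called in the fits of all 3 lines with or without the block, those at least 0.5 lower in all 3 pairs, the largest log2 fold change of each role, the 3 widest ranges between pairs, and the 3 largest log2 fold changes against the normal lines in size. Gene positions, lengths and GC content were read from the GRCh37 lift of GENCODE release 44 (33786 genes matched by symbol and 1556 by an older symbol), and promoter windows come from the RefSeq table of GRCh38.p14. A gene that belongs to the comparison lists was left out of them and is not reported here.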

Additional observations from a re-analysis of the deposited data

Results flagged for a closer look

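For 7 genes the pairs did not share a direction, with 1 or 2 lines above 0 and the others below, and the difference between lines was not tested, since each arm of a pair has 1 library. The range of the 3 pair differences, on the scale of log2(CPM + 0.05), was 1.56 for BRCA2 (DLD1 above 0), 0.97 for RAD51B (DLD1 and HCT8 above 0), 1.10 for RAD54B (DLD1 and HCT8 above 0), 1.40 for BRIP1 (DLD1 above 0), 0.36 for RAD50 (DLD1 above 0), 1.38 for FANCM (DLD1 above 0) and 1.08 for SLX4 (DLD1 and HCT8 above 0). HCT116 was below 0 for all 7 by column totals, and RAD50 was at 0.14 in HCT116 after TMM scaling.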

How the results depend on the processing

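In the hypoxia comparison the median of the 37 genes stayed negative under every alternative and lay between -0.77 and -0.32 over the fits that left out a library or a line. Of 406 alternatives of the 16 named results, 0 reversed, 398 kept their side of the threshold and 8, all with DESeq2 and the block, passed it. None of the 16 passed in the main fit, so keeping a side means staying uncalled. The 16 were chosen from these data, many for their size, and the alternatives reuse the same libraries. The tally is therefore no independent test of their direction. Without the block edgeR called 0 genes of the table and DESeq2 called 55. The number of genes called with the replicate block was 200 with edgeR (156 higher and 44 lower), 1666 with DESeq2 (955 and 711), 215 with upper-quartile normalization, 172 with column totals, 211 with thinned counts, 224 with library sizes without the 10 largest genes, 113 with limma-trend and 200 with GC and length offsets (124 and 76). Leaving out a library or a line gave 0 to 1064 genes called and 0 to 4 members called. With edgeR and the block it was 292 without DLD1, 738 without HCT116 and 6 without HCT8, and with DESeq2 and the block 1045, 1064 and 236. Members called numbered 4 with DESeq2 and the block, 4 without DLD1, 2 without HCT116 and 0 without HCT8, and the cause was not tested. Against the normal lines DESeq2 called 143 genes, the median of the 37 was 0.38 with column totals (all genes tested, 0.17 against 0.00 with TMM) and 0.28 with limma-trend, and it lay between -0.02 (without NCM460) and 0.31 (without HIEC6) with 1 library left out. The replicate block there gave 0.15 and 0 calls and pairs nothing. With 1 library per line and condition, differences between lines in response could not be tested.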
